A study of Mus musculus with 9 samples.

Results

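Adipocytes are the fat-storing cells of adipose tissue, and their characteristic transcripts were followed in kidney RNA. The genes were chosen by name and are Adipoq, Lep, Retn and Cfd, which code for proteins that fat cells secrete, Plin1, Plin4 and Cidec, whose proteins sit on the lipid droplet, and Fabp4, Car3 and Thrsp, which act in fat cell metabolism. All 10 were found by gene symbol among the 52636 genes of the tables, and all 10 were among the 17114 genes that passed the filter on low counts. A gene can pass that filter through 1 group of libraries alone. The filter was passed by Adipoq, Lep and Plin1 although they had 2, 1 and 2 reads in the 3 WT libraries together. Retn, Cidec and Cfd passed it with 10, 11 and 25 reads there. These genes entered the tests through the knock-in libraries, where they are high. Counts of members higher than in WT are therefore no independent support for a difference.

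The study sequenced RNA of whole mouse kidney in 9 libraries, 3 each from C59A knock-in, C59S knock-in and wild-type (WT) mice. Both knock-in alleles replace the codon of 1 cysteine of Nfkb1, which codes for the NF-kB precursor that is cut to the DNA-binding p50 subunit, and both carry a PGK-neo selection cassette in an intron. The knock-in mice came from C57BL/6NTac-derived embryonic stem cells, per the labels. C59A is labelled as the activated form and C59S as the inactivated form, yet the statement on DNA binding in the same labels has the opposite order, so no direction was assumed. The series asks how altered NF-kB signalling bears on hypertension and kidney disease, and it does not name fat as a question. The labels give no sex, age, litter, batch or dissection of the kidney, and they do not say that the 3 libraries of a genotype are 3 animals. The p-values therefore speak of the scatter among these libraries alone, which may in part be technical. A count per gene cannot show the codon change.

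Fat cells keep triglyceride in a single large droplet coated by perilipins, and they release hormones such as adiponectin and leptin that act on appetite, insulin action and blood vessels. The kidney lies in perirenal fat and carries fat in its sinus, and kidney epithelium itself is not known as a source of adiponectin, leptin or resistin. In RNA of a whole organ, fewer cells of a type and less RNA per cell cannot be told apart.

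Total counts ran from 16367403 to 25787659 reads per library. Levels are given as CPM, the reads per 1e+06 of the library total after correction by a TMM scaling factor (0.798 to 1.12). A floor of 3 reads, under which a gene cannot be told from absent, corresponded to 0.112 to 0.202 CPM. The intervals on reads given below are exact 95% intervals and cover counting error only. The 3 C59A libraries held reads of Y-linked genes and almost none of Xist, whereas the C59S and WT libraries held Xist. Every difference between C59A and another genotype therefore cannot be told apart from a difference between libraries of these kinds. C59S replicate 3 also held a trace of Y-linked reads, with Ddx3y at 0.809, Eif2s3y at 1.15 and Uty at 0.539 CPM. The other C59S and WT libraries held at most 0.149 CPM of each of these. Kdm5d stood at 0.0674 CPM in C59S replicate 3. Summed over 9 epithelial genes of the nephron, the level lay between 8692 and 9438 CPM in the 6 knock-in libraries and between 11977 and 13633 CPM in WT, so all 9 libraries carried the defining markers of kidney. Slc34a1 made a large part of that sum, with 3158 to 5102 CPM in the knock-in libraries and 6553 to 6654 CPM in WT. The 9 genes did not move as one. Of them 3 had a positive log2 fold change in C59A over WT and 4 in C59S over WT, among them Aqp2 (1.12 and 1.06). EdgeR called 3 of the 9 lower in C59A than in WT, where 5.7% of all genes were called, and 0 in C59S.

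Of the members with a promoter in the RefSeq table, those whose levels ran closest to the common pattern of the 10 (Retn, Plin1 and Adipoq) and the member that ran farthest from it (Lep) are shown by their promoters to compare what lies before genes that moved together across libraries. Each is the stretch of 250 bases before the RefSeq start, on build GRCm38.p6, in the direction of transcription, and capitals mark matches of the motifs searched. Retn lies at chr8:3655520-3655769 (plus strand), Plin1 at chr7:79732777-79733026 (minus strand), Adipoq at chr16:23146286-23146535 (plus strand) and Lep at chr6:29059971-29060220 (plus strand). The RefSeq start of Plin1 lies inside the gene as the tables place it, so the part of that window from 79732777 to 79732903 lies in the gene.
Retn: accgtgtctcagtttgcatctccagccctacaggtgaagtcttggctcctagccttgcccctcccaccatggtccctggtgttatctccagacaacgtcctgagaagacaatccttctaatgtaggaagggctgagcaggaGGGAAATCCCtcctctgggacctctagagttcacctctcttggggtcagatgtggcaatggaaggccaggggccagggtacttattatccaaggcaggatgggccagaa
Plin1: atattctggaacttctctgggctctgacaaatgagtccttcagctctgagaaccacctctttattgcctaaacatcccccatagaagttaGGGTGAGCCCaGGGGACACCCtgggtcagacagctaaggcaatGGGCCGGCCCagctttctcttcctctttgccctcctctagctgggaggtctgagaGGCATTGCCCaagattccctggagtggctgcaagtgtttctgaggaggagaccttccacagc
Adipoq: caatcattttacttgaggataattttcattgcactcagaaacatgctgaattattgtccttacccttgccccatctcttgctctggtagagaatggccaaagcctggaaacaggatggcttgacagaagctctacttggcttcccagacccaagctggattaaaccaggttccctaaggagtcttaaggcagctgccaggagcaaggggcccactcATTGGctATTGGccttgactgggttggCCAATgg
Lep: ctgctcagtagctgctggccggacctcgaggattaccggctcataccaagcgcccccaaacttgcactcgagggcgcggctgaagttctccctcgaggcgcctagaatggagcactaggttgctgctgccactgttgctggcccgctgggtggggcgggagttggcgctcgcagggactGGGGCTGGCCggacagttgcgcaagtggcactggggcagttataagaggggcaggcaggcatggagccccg

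The promoter table held 8 of the 10 members, with 2 promoters for Cidec and none for Fabp4 and Car3. Car3 ran closer to the common pattern than Adipoq and is not shown for that reason. Both strands were searched for CCAAT, for the TATA box TATAAA, for the nuclear receptor half-site AGGTCA and for an NF-kB-like pattern of GGG and CC with any 5 bases between them, and no matches of different motifs overlapped. The NF-kB-like pattern was in 7 of the 9 member promoters and in 45.8% of the 32851 promoters of the table. CCAAT was in 3 of the 9 and in 33.8% of all. Neither TATAAA (12.4% of all) nor AGGTCA (14% of all) was in any of the 9 windows. In Retn the stretch GGGAAATCCC meets the pattern on both strands and lies 109 to 100 bases before the start. Plin1 held NF-kB-like matches at 4 places, of which those 117 to 108 and 62 to 53 bases before its RefSeq start lie inside the annotated gene. Lep held 1 between 71 and 62 bases before its start, and Adipoq held 3 CCAAT matches within 34 bases of its start and no NF-kB-like match. A match is a description of letters and not evidence of binding, and the deposited data hold no measure of binding.

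The genes of secreted proteins differed widely between libraries of 1 genotype. Adipoq (ENSMUSG00000022878, chr16:23146536-23158028 on GRCm38), the gene of adiponectin, was read 67, 3 and 331 times in C59A replicates 1, 2 and 3, 6, 937 and 590 times in C59S replicates 1, 2 and 3, and 0, 1 and 1 times in WT replicates 1, 2 and 3. Its levels were 4.04, 0.170 and 15.8 CPM in C59A, 0.224, 42.2 and 39.8 CPM in C59S and 0, 0.0502 and 0.0476 CPM in WT. C59S replicates 2 and 3 stood highest, C59A replicates 3 and 1 came next, and C59A replicate 2 and C59S replicate 1 lay near the floor and close to WT. All 6 knock-in libraries were above all 3 WT libraries, where 12.6% of all genes had every C59A library above WT and 11.2% every C59S library. The counting intervals of C59A replicate 2 (0.0350 to 0.496 CPM) and C59S replicate 1 (0.0820 to 0.487 CPM) overlapped that of WT replicate 2 (0.00127 to 0.280 CPM).

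Lep (ENSMUSG00000059201, chr6:29060220-29073877), which codes for leptin, the hormone that reports fat stores to the brain, had 1, 1 and 98 reads in C59A, 0, 18 and 30 reads in C59S and 0, 1 and 0 reads in WT. These were 0.0603, 0.0566 and 4.67 CPM in C59A, 0, 0.811 and 2.02 CPM in C59S and 0, 0.0502 and 0 CPM in WT. It was the only member whose highest library was C59A replicate 3. Retn (ENSMUSG00000012705, chr8:3655770-3660110), the gene of resistin, which in mice is a hormone of fat cells, had 3.20, 0.0566 and 5.52 CPM in C59A, 0.596, 26.6 and 28.4 CPM in C59S and 0.210, 0.0502 and 0.190 CPM in WT. C59A replicate 2, with 1 read of Retn, fell inside the WT range and the other 5 knock-in libraries lay above it.

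Cfd (ENSMUSG00000061780, chr10:79890853-79892655), which codes for adipsin, the complement factor D protease, was the most abundant secreted member per length, in FPKM. Its levels were 25.9, 0.226 and 68.6 CPM in C59A, 2.24, 157 and 428 CPM in C59S and 0.379, 0.201 and 0.571 CPM in WT, from 429, 4 and 1440 reads, 60, 3494 and 6355 reads, and 9, 4 and 12 reads. Within C59A the highest library was 303 times the lowest, and within C59S 192 times. The 4 secreted members summed to 33.2, 0.509 and 94.5 CPM in C59A and to 3.06, 227 and 499 CPM in C59S, against 0.589, 0.352 and 0.809 CPM in WT.

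**Figure D1:**
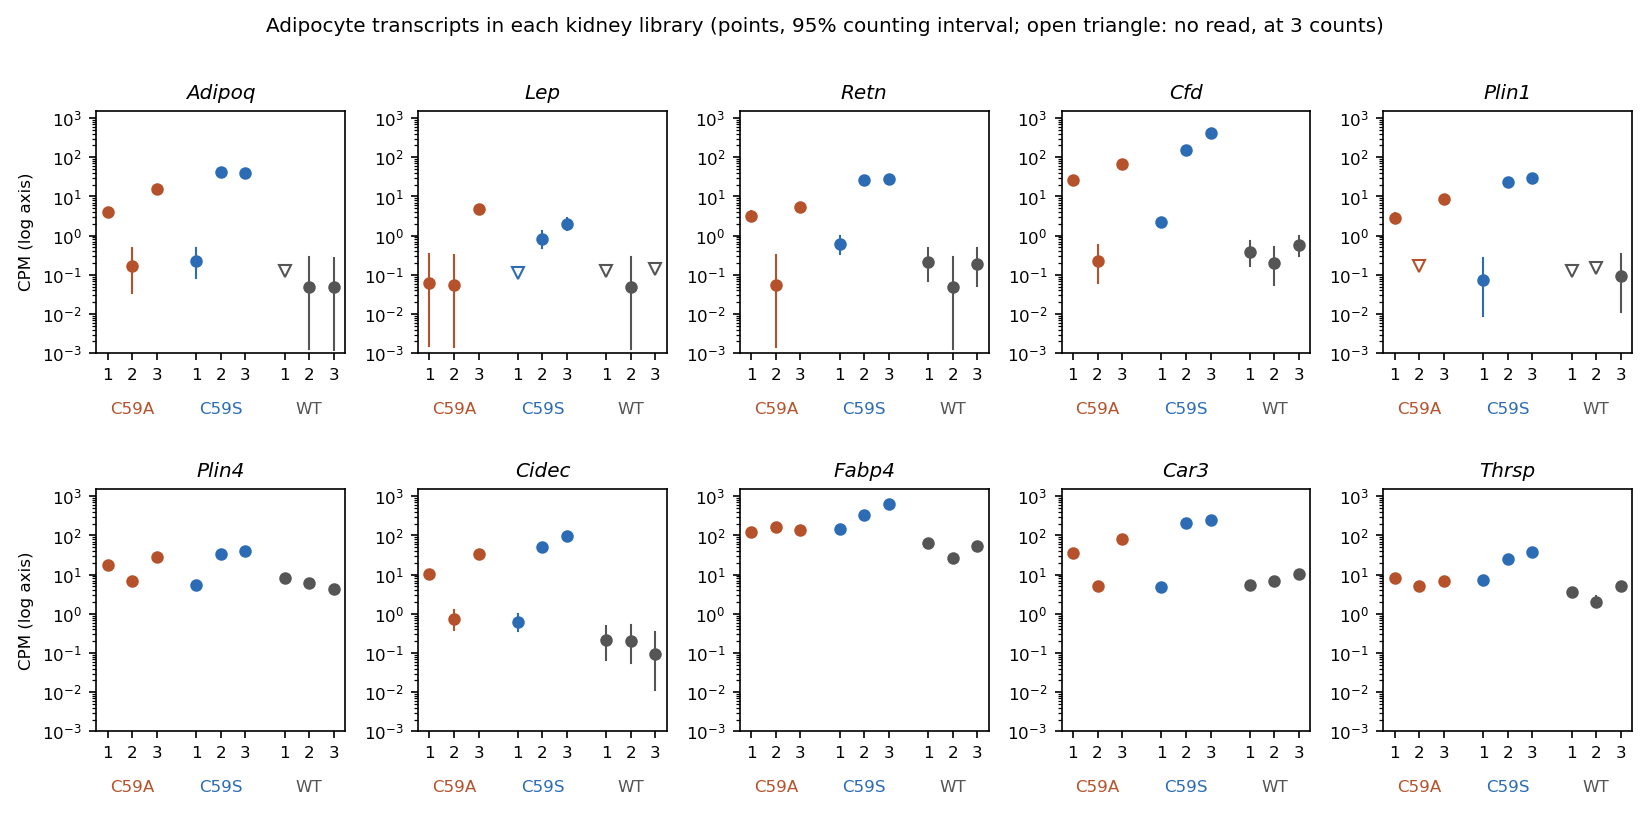
Level of each adipocyte gene in each kidney library, in CPM on a log axis, with C59A, C59S and WT replicates 1 to 3 from left to right. Points carry 95% counting intervals and open triangles stand for no read, drawn at 3 reads. For most genes C59A replicates 1 and 3 and C59S replicates 2 and 3 stand above the rest, whereas Fabp4 in C59A lies at 123 to 160 CPM in all 3 libraries.

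The genes of the lipid droplet repeated the order of libraries, with Plin4 differing least. Plin1 (ENSMUSG00000030546, chr7:79720218-79732903), the perilipin that guards the droplet of fat cells from lipases, had 2.89, 0 and 8.48 CPM in C59A, 0.0745, 22.8 and 30.2 CPM in C59S and 0, 0 and 0.0952 CPM in WT. C59A replicate 2 had no read of it, as had WT replicates 1 and 2, and C59S replicate 1 and WT replicate 3 had 2 reads each. Cidec (ENSMUSG00000030278, chr6:113424634-113435760), whose protein fuses droplets into a larger one, was at 10.3, 0.736 and 33.6 CPM in C59A, 0.633, 50.02 and 97.5 CPM in C59S and 0.210, 0.201 and 0.0952 CPM in WT. With 171, 13 and 705 reads in C59A, 17, 1110 and 1447 reads in C59S and 5, 4 and 2 reads in WT, Cidec was higher in all 6 knock-in libraries than in WT. Of all genes, 12.6% had every C59A library above WT and 11.2% every C59S library. The counting intervals of C59A replicate 2 (0.392 to 1.26 CPM) and C59S replicate 1 (0.369 to 1.01 CPM) overlapped that of WT replicate 1 (0.0683 to 0.491 CPM).

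Plin4 (ENSMUSG00000002831, chr17:56100591-56109803), a perilipin of nascent droplets that muscle also uses, had a sizeable level in every library. It was at 17.8, 7.07 and 28.5 CPM in C59A, 5.48, 33.2 and 41.2 CPM in C59S and 8.25, 6.03 and 4.38 CPM in WT, so C59A replicate 2 and C59S replicate 1 lay inside the WT range. Plin4 overlaps Hdgfl2 on the opposite strand, and with the strand setting of the counting not given, its reads and those of Hdgfl2 may be mixed. No other member overlaps an annotated gene.

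The metabolic members had reads in every library. Fabp4 (ENSMUSG00000062515, chr3:10204088-10208576), the fatty acid binding protein of fat cells, which endothelium and macrophages also use, was at 123, 160 and 136 CPM in C59A, 149, 339 and 650 CPM in C59S and 62.8, 26.8 and 54.5 CPM in WT. All 6 knock-in libraries were above WT, and C59A replicate 2 and C59S replicate 1, the libraries poorest in Adipoq among the knock-ins, kept 2830 and 3995 reads of Fabp4. Car3 (ENSMUSG00000027559, chr3:14863512-14872523), a carbonic anhydrase abundant in fat and muscle, had 34.7, 5.26 and 82.7 CPM in C59A, 4.92, 206 and 242 CPM in C59S and 5.55, 6.88 and 10.5 CPM in WT. The Car3 levels of C59A replicate 2 and C59S replicate 1 were below all 3 WT libraries.

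Thrsp (ENSMUSG00000035686, chr7:97412938-97417730), also called Spot 14, which takes part in the control of fatty acid synthesis, had 8.08, 5.15 and 6.81 CPM in C59A, 7.38, 24.7 and 38.7 CPM in C59S and 3.53, 2.06 and 5.24 CPM in WT. All C59S libraries were above WT, while the lowest C59A library was just under the highest WT library. With Fabp4, Thrsp was the member that varied least within C59A, where its highest library was 1.57 times the lowest, against 1.31 times for Fabp4.

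Endothelium and macrophages, which also use Fabp4, were followed by their own marker genes. The summed level of 6 endothelial genes was 259, 291 and 242 CPM in C59A, 405, 432 and 599 CPM in C59S and 261, 154 and 358 CPM in WT. The sum of 7 macrophage genes was 169.8, 272 and 135 CPM in C59A, 201, 230.2 and 207 CPM in C59S and 132, 169 and 134 CPM in WT. For both sums every C59S library lay above every WT library, as for 11.2% of all genes, and the C59A libraries overlapped WT. Of the single genes, Kdr, Adgre1, Cd68, Csf1r and C1qa overlapped between C59S and WT, and the others did not. Csf1r had 61.8 to 83.8 CPM in C59S and 38.0 to 77.4 CPM in WT. EdgeR called 0 of either list in C59S against WT, as for all genes. Their part in the Fabp4 level was not tested.

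Summed over the 10 members, the level was 229, 179 and 391 CPM in C59A, 170.4, 903 and 1598 CPM in C59S and 80.9, 42.4 and 75.6 CPM in WT. The mean was 266 ± 111 CPM in C59A, 891 ± 714 CPM in C59S and 66.3 ± 20.9 CPM in WT (SD, n = 3 each). Without C59S replicate 3 the C59S mean was 537 CPM, and without C59S replicate 1 it was 1251 CPM. Fabp4 made the larger part of the sum in C59A replicates 1 and 2, C59S replicate 1 and the 3 WT libraries. Without Fabp4 the sums were 107, 18.7 and 255 CPM in C59A, 21.5, 564 and 949 CPM in C59S and 18.1, 15.5 and 21.1 CPM in WT, so C59A replicate 2 and C59S replicate 1 were then in or just above the WT range. No test was made on the sum, since the members were chosen with results of these data known.

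**Figure D2:**
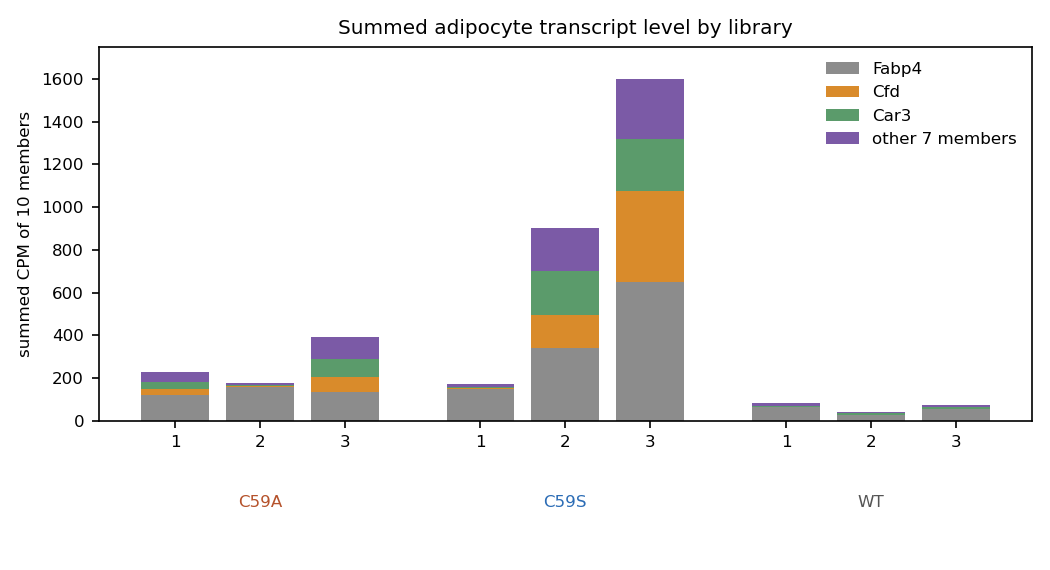
Summed CPM of the 10 members in each library, stacked as Fabp4, Cfd, Car3 and the other 7 genes, with C59A, C59S and WT from left to right. The sum is 1598 CPM in C59S replicate 3 and 903 CPM in C59S replicate 2, against 170.4 CPM in C59S replicate 1 and 42.4 to 80.9 CPM in WT.

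Compared per length, with the authors' FPKM, Cfd led in the libraries rich in fat transcripts. In C59S replicate 3 the order of levels was Cfd at 462 FPKM, Fabp4 at 144, Car3 at 84.2, Cidec at 52.3, Adipoq at 28.7, Retn at 17.9, Thrsp at 17.6, Plin4 at 7.09, Plin1 at 6.46 and Lep at 0.6 FPKM. Retn and Thrsp, and Plin4 and Plin1, were neighbours that lay close together. In WT replicate 1 the highest FPKM were those of Fabp4 at 13.7, Car3 at 1.90, Thrsp at 1.58 and Plin4 at 1.40, and Cfd stood at 0.402 FPKM. The Fabp4 length in the tables, 4489 bases, equals the whole span of the gene, because an annotated transcript keeps the introns, so its FPKM is on that length.

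Between C59A and WT, all 10 members had a positive log2 fold change (47.6% of all genes had one), and none passed the test. The test was edgeR's quasi-likelihood test in 1 model of all 9 libraries, with Benjamini-Hochberg adjustment over all genes tested and a threshold of 0.05. Of the 10 members 0 were called, where 5.7% of all genes were called in this comparison. Unadjusted p was under 0.05 for 5 members, against 21% of all genes, and the adjusted p of the members by edgeR lay between 0.132 and 0.438. DESeq2, run as an alternative, called 4 members higher (Adipoq, Cfd, Cidec and Fabp4), where it called 5.17% of all genes higher. The median log2 fold change of the members was 5.23, against -0.02 for all genes, and it was 5.27 when the 3 members with 1 or 2 WT reads entered with their ratio of reads.

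The fold changes of single members between C59A and WT came with large errors. Those of Cfd and Cidec were 6.34 ± 2.58 and 6.41 ± 2.48 on the log2 scale (SE), Retn was at 4.21 ± 2.01 and Car3 at 2.43 ± 1.43. Fabp4 had the smallest adjusted p among the members, 0.132 by edgeR, with 1.54 ± 0.51, and passed without C59S replicate 1 (adjusted p = 0.0323 by edgeR), which belongs to neither genotype and enters only through the common estimate of spread. Plin4 was at 1.52 ± 0.79 and Thrsp at 0.88 ± 0.58. For the members with 1 or 2 WT reads the scaled ratio of reads in C59A over WT was 235 for Adipoq (interval 64.5 to 1944), 132 for Plin1 (36.2 to 1099) and 117 for Lep (20.5 to 4669). These ratios rested on C59A replicate 3, which held 331 of the 401 Adipoq reads, 178 of the 226 Plin1 reads and 98 of the 100 Lep reads of C59A. Without it the ratio was 66.1 for Adipoq (17.6 to 556) and 45.3 for Plin1 (11.9 to 385), and Lep was left with 2 reads, too few for a ratio. The C59A libraries were all above WT for 4 members (Adipoq, Lep, Cidec and Fabp4), a pattern that 12.6% of all genes showed. Lep belongs to the 4 with 1 read each in C59A replicates 1 and 2, under the floor.

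Between C59S and WT all 10 members had a positive log2 fold change as well (51.1% of all genes had one), and none passed. EdgeR called 0 of the 10 and no gene at all in this comparison (0% of 17114). No label states a pairing of libraries, and same-numbered C59S and WT libraries counted as paired only by correlations in these same data. With the replicate block edgeR called 0 members and 0 genes in the model of all 9 libraries. With the block and only these 2 genotypes edgeR called 0 of the 7 members tested and 3.82% of all genes. Without WT replicate 3 it called 4.17% of all genes and 0 members. In the main model, unadjusted p was under 0.05 for 9 of the 10, all but Lep, against 18.1% of all genes, with adjusted p between 0.121 and 0.33 by edgeR. DESeq2 called 8 higher, all but Lep and Plin4, where it called 1.65% of all genes higher. The median log2 fold change was 6.11 against 0.01 for all genes, and 6.23 with ratios of reads in place of the 3 fits on 1 or 2 WT reads.

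Cfd showed the largest fitted fold of the members with more than 3 WT reads, 8.96 ± 2.68 on the log2 scale in C59S over WT (SE). Cidec followed with 8.12 ± 2.44, Retn with 6.85 ± 1.92 and Car3 with 4.31 ± 1.52. Fabp4 at 2.98 ± 0.53 and Thrsp at 2.69 ± 0.58 had smaller folds and smaller errors, with edgeR adjusted p of 0.121 and 0.13, and both passed without C59S replicate 1 (edgeR adjusted p = 0.0166 and 0.01). Plin4 was at 2.08 ± 0.79. The scaled ratio of reads in C59S over WT was 776 for Adipoq (214.5 to 6415), 484 for Plin1 (133 to 3998) and 48.6 for Lep (8.32 to 1959). All C59S libraries were above all WT libraries for 6 members (Adipoq, Retn, Cfd, Cidec, Fabp4 and Thrsp), as for 11.2% of all genes.

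The C59S values rested on replicates 2 and 3. With both left out, a choice made after seeing the data, the lone C59S library gave log2 fold changes against WT of -0.19 for Plin4 and -0.63 for Car3, and 6 members (Adipoq, Retn, Cfd, Cidec, Fabp4 and Thrsp) had positive values. Lep and Plin1 had no more than 2 reads on either side, so no direction can be read for them. That fit assumes that the lone library varies like the other groups. The comparisons of C59A and of C59S with WT share the WT libraries, so their values for the members are not independent of each other.

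Between C59A and C59S, 9 of the 10 members had a negative log2 fold change and 1, Lep, a positive one, which 49% of all genes had. The libraries of both genotypes overlapped for all 10, whereas 14.7% of all genes had every C59A library above C59S and 14.5% had every C59A library below. EdgeR called 0 of 10, against 5.91% of all genes, with unadjusted p under 0.05 for 2 (22.9% of all genes) and adjusted p from 0.103 to 0.787. DESeq2 called 1 lower in C59A, Thrsp, where it called 4.95% of all genes lower. The median log2 fold change was -1.85, against -0.01 for all genes. Thrsp was at -1.81 ± 0.56 (adjusted p = 0.103 by edgeR) and Fabp4 at -1.44 ± 0.51 (0.138), and both passed without C59S replicate 1 (0.00626 and 0.0273 by edgeR). Adipoq was at -2.01 ± 1.55, and Lep alone was positive, at 0.88 ± 1.53, a value that turned negative without C59A replicate 3, which leaves 2 reads of Lep in C59A. Without C59S replicates 2 and 3 together, 7 of the members lower in C59A became higher there, among them Adipoq at 4.88 and Retn at 2.30 on the log2 scale.

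**Figure D3:**
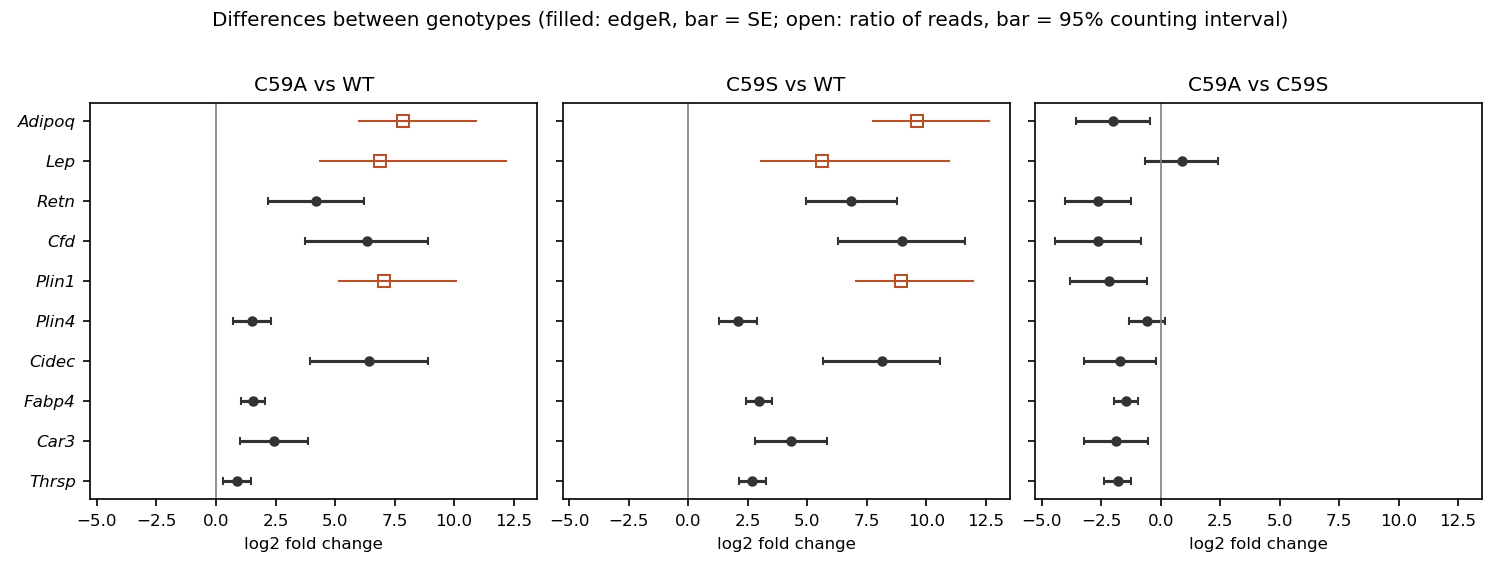
Log2 fold change of each member in the comparisons C59A over WT, C59S over WT and C59A over C59S. Filled points are edgeR fits with their SE, and open squares are ratios of reads with 95% counting intervals for the members with 1 or 2 WT reads. All values are above 0 against WT, up to 8.96 for the fitted value of Cfd, and no member passed the edgeR test.

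Reads of the other members were set against those of Adipoq in the 4 libraries with at least 67 reads of it. Plin1 had 0.716 and 0.538 reads per Adipoq read in C59A replicates 1 and 3, and 0.539 and 0.759 in C59S replicates 2 and 3. Retn had 0.791 and 0.350 in these C59A libraries and 0.630 and 0.715 in these C59S libraries, and Car3 had 8.58 and 5.24 in C59A and 4.89 and 6.10 in C59S. For Plin1 and Car3 the highest and the lowest of the 4 proportions lay less than a factor of 2 apart, and the Retn proportion was lowest in C59A replicate 3.

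Lep was the member furthest from a constant proportion. C59A replicate 3 had 0.296 Lep reads per Adipoq read (interval 0.234 to 0.372), against 0.0149 in C59A replicate 1, 0.0192 (0.0113 to 0.0305) in C59S replicate 2 and 0.0508 (0.034 to 0.0734) in C59S replicate 3. The intervals of C59A replicate 3 and of both C59S libraries did not overlap. Cfd had 6.40 and 4.35 reads per Adipoq read in C59A replicates 1 and 3, 3.73 in C59S replicate 2 and 10.8 in C59S replicate 3, the highest of the 4. Retn, Cidec, Car3, Fabp4, Plin4 and Thrsp had their highest proportion in C59A replicate 1, the library of the 4 with the fewest Adipoq reads. Those of Cidec, Fabp4, Plin4 and Thrsp there were 2.55, 30.3, 4.40 and 2 reads per Adipoq read.

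**Figure D4:**
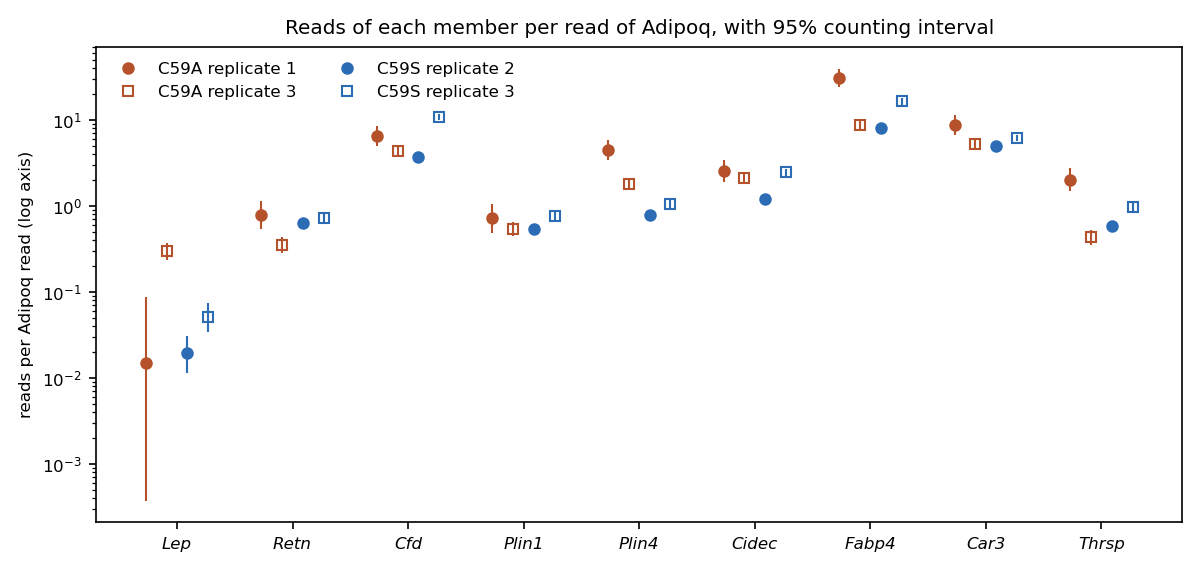
Reads of each other member per read of Adipoq in C59A replicates 1 and 3 and C59S replicates 2 and 3, on a log axis, with 95% counting intervals. Plin1 lies at 0.538 to 0.759 in all 4 libraries, whereas Lep lies at 0.296 in C59A replicate 3 and at 0.0149 to 0.0508 in the other 3.

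The common pattern of the members was taken as the median over the 10 of log2(CPM + 0.5), centred on each gene's mean over the 9 libraries. It was 0.59, -1.95 and 1.94 in C59A, -1.36, 3.29 and 3.47 in C59S and -1.87, -2.12 and -1.60 in WT on that log2 scale. Retn, Plin1, Car3 and Adipoq lay nearest to it, with a root mean square difference over the libraries of 0.25, 0.26, 0.35 and 0.50, and Lep lay farthest at 1.45. Cidec, Plin4, Thrsp, Cfd and Fabp4 lay between, at 0.78, 1.15, 1.28, 1.36 and 1.38. The pattern is made from the members, so their nearness to it is in part built in. Among 14990 other genes of at least 1 CPM on average, the nearest was Adrb3, the beta-3 adrenergic receptor of fat cells, at 0.51. Adrb3 had 1.57, 0 and 3.24 CPM in C59A, 0.0745, 15.4 and 7.62 CPM in C59S and 0.0421, 0 and 0.19 CPM in WT. Next came Mrap, the accessory protein of the ACTH receptor, at 0.95, and then Apol6, Igfbp6, Slc36a2, Nnat, Clec3b, Adig, Abcd2 and Cpxm2, at up to 1.19. Of the 14990 other genes, 1, 6, 12, 16, 17 and 23 lay nearer to the pattern than Cidec, Plin4, Thrsp, Cfd, Fabp4 and Lep. Adrb3 and Adig also stand in the wider list of fat cell genes below and Clec3b in that of adipose stroma.

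A wider list of fat cell genes had smaller fold changes than the members, with medians of 0.15, 1.08 and -1.06 on the log2 scale in C59A over WT, C59S over WT and C59A over C59S. In this list of 20 further adipocyte genes, 17 were tested and 1 was called higher in C59A than in WT, Tmem120b, a gene linked to fat cell differentiation, with a log2 fold change of 0.65 ± 0.12 (adjusted p = 0.0108 by edgeR), where 5.7% of all genes were called. That call was lost with library totals in place of TMM (0.41, adjusted p = 0.214 by edgeR), without C59A replicate 1 (0.051) and with the replicate block on the 2 genotypes (0.0767). Between C59S and WT 0 of the 17 were called by edgeR, as for all genes, with all 17 values positive. Between C59A and C59S 3 were lower in C59A, where 5.91% of all genes were called in either direction. They were Lgals12, a lectin of the lipid droplet (-2.30 ± 0.50, adjusted p = 0.0235 by edgeR), Sncg, gamma-synuclein (-0.93 ± 0.17, 0.0113), and Cebpa, a transcription factor of fat cells that liver also uses (-0.86 ± 0.22, 0.0458). None of the 3 calls held without C59S replicates 2 and 3 together, where the adjusted p by edgeR was 0.49, 0.252 and 0.783 in this order. Of single libraries, leaving out C59A replicate 1 or 2 or C59S replicate 2 or 3 ended the Lgals12 call, C59A replicate 1 or C59S replicate 3 the Sncg call, and any library but C59S replicate 1 and WT replicate 2 the Cebpa call.

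Single genes of the wider list differed in their pattern. Adig, which codes for adipogenin, had 0.603, 0.113 and 0.667 CPM in C59A, 0.410, 7.03 and 7.82 CPM in C59S and 0.547, 0.1005 and 0.429 CPM in WT, so it was high in C59S replicates 2 and 3, and the C59A libraries lay close to or inside the WT range. Pparg, the master transcription factor of fat cells, had 3.62, 4.81 and 2.86 CPM in C59A, 3.73, 5.18 and 9.37 CPM in C59S and 1.05, 1.51 and 1.81 CPM in WT. All knock-in libraries were above WT, and C59A replicate 2, the C59A library poorest in the members, was the highest of C59A. Of all genes, 12.6% had every C59A library above WT and 11.2% every C59S library. Pparg was not called against WT in C59A (adjusted p = 0.0564 by edgeR) or in C59S (0.112). Slc2a4, the insulin-responsive glucose transporter, had 25.0, 39.4 and 29.1 CPM in C59A, 42.5, 39.9 and 46.1 CPM in C59S and 39.1, 40.9 and 47.3 CPM in WT, and the C59S libraries overlapped WT. None of these patterns was tested against that of the members. Adig, Pparg and Slc2a4 were chosen after their values were seen.

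Of 24 genes of fat storage and lipolysis, 4 were called higher and 0 lower in C59A than in WT, where 5.7% of all genes were called in either direction. They were Cd36, a fatty acid transporter that kidney tubules and endothelium also use (2.68 ± 0.34, adjusted p = 0.00269 by edgeR), Fitm2 (0.77 ± 0.15, 0.01), Abhd5, the coactivator of the triglyceride lipase (0.62 ± 0.12, 0.0117), and Plin5, a perilipin of oxidative tissue (1.58 ± 0.36, 0.0289). The Cd36 call held under all 23 alternatives. With library totals in place of TMM, Fitm2 (adjusted p = 0.0931 by edgeR) and Abhd5 (0.195) did not pass, nor did they with the replicate block on the 2 genotypes (0.0526 and 0.075 by edgeR). Fitm2 was also lost with FPKM and no filter (0.0537 by limma). Leaving out C59A replicate 3 ended the Abhd5 call, and Plin5 did not pass without C59A replicate 1 or 3 or any 1 of the WT libraries, nor with FPKM plus 0.1 or FPKM and no filter. Between C59S and WT edgeR called 0 of 24. Between C59A and C59S, Abhd5 (0.53 ± 0.12) and Fitm2 (0.65 ± 0.15) were higher in C59A, and Cavin2 (-0.85 ± 0.20), Pde3b (-0.70 ± 0.18) and Mgll (-0.67 ± 0.17) were lower, with adjusted p from 0.0259 to 0.0464 by edgeR and 5.91% of all genes called. Of the 23 alternatives, 8 ended the call of Abhd5, 9 that of Fitm2, 10 that of Cavin2, 12 that of Pde3b and 15 that of Mgll. None of these 5 calls held without C59S replicate 2, without C59S replicate 3 or without both. Abhd5 and Fitm2 also did not pass without C59A replicate 3 or C59S replicate 1, Fitm2 without C59A replicate 1, Cavin2, Pde3b and Mgll without any 1 of the C59A libraries, and Mgll without WT replicate 1.

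Among 11 genes of fatty acid synthesis, Me1, the cytosolic malic enzyme, was higher in C59A than in WT (1.47 ± 0.16 on the log2 scale, adjusted p = 0.000333 by edgeR) and Elovl6, an elongase of fatty acids, was lower (-1.77 ± 0.23, 0.00159), where 5.7% of all genes were called in either direction. In C59A against C59S, Me1 (1.28 ± 0.16, 0.000982) and Mlxipl, the sugar-responsive factor ChREBP (0.94 ± 0.19, 0.0161), were higher and Elovl6 (-2.29 ± 0.23, 0.000311) was lower by the same test, where 5.91% of all genes were called. The Mlxipl call was lost under 6 of the 23 alternatives, among them leaving out C59A replicate 1, C59S replicate 2 or C59S replicate 3. The Me1 and Elovl6 calls held under all 23 alternatives, and 0 of the 11 were called between C59S and WT by edgeR. For Me1, Elovl6 and Cd36 alike, every alternative set C59A libraries with Y-linked reads against libraries with Xist. The alternatives therefore cannot separate genotype from that difference. Kidney epithelium makes these enzymes as well.

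None of 8 genes for receptors and partners of the secreted members was called in any comparison by edgeR. Adipor1, a receptor of adiponectin, had 91.4, 94.3 and 99.1 CPM in C59A, 87.9, 94.1 and 92.1 CPM in C59S and 70.9, 79.6 and 89.4 CPM in WT. Lepr, the leptin receptor, had 5.31, 16.1 and 3.57 CPM in C59A, 14.0, 6.94 and 11.4 CPM in C59S and 5.85, 2.86 and 3.57 CPM in WT. Of 10 genes of adipose stroma, 0 were called against WT by edgeR in either knock-in, and Lum, the matrix proteoglycan lumican, was lower in C59A than in C59S (-1.73 ± 0.37, adjusted p = 0.0208 by edgeR), a call lost under 6 of the 23 alternatives, among them leaving out C59A replicate 1 or 3 or C59S replicate 2 or 3. The stroma sum was 593, 655 and 734 CPM in C59A, 505, 669 and 710 CPM in C59S and 368, 408 and 522 CPM in WT. Ly6a alone made the larger part of every sum. It was at 458, 488 and 620 CPM in C59A and at 364, 450 and 405 CPM in C59S. In WT it was at 260, 339 and 393 CPM.

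Markers of tissues that lie at the kidney were raised in single libraries, and not in the same way in the libraries rich in fat transcripts. Ucp1, the uncoupling protein that defines brown and beige fat, had 28.8 CPM in C59S replicate 3, 1.62 CPM in C59S replicate 2 and at most 0.238 CPM in the other 7 libraries. In C59S replicate 3 there were 0.725 Ucp1 reads per Adipoq read (interval 0.639 to 0.823), against 0.0384 in C59S replicate 2 and 0.0151 in C59A replicate 3. Cidea and Cox8b, further genes of brown fat, stood at 26.8 and 30.2 CPM in C59S replicate 3 and at 4.42 and 6.89 CPM in C59S replicate 2. Cox8b was also read at 6.52 CPM in C59S replicate 1 and at 7.18 CPM in WT replicate 2, and Zic1 and Lhx8, markers of classical brown fat, had no read in any library. Summed over the list of 10 brown fat genes the level was 146 CPM in C59S replicate 3 and 32.7 to 62.6 CPM in the other 8, of which Cox7a1 and Prdm16 made a large part everywhere.

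The adrenal gland borders the kidney too. Summed over 11 adrenal genes, the level was 122 CPM in C59S replicate 2 and 3.57 to 9.71 CPM in the other 8 libraries. Cyp11b1, Cyp21a1 and Hsd3b1, enzymes of steroid synthesis in the adrenal cortex, were at 10.9, 41 and 41.6 CPM in C59S replicate 2, and none was above 0.261 CPM elsewhere. Th and Dbh, enzymes of catecholamine synthesis, had 1.99 and 1.27 CPM in C59A replicate 1, where Cyp11b1 had no read. In that library Pnmt, a further enzyme of the list, had no read either, and Chga and Chgb were at 0.0603 and 0.663 CPM. Mrap, named above, is also used by the adrenal cortex.

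Urothelial genes, which mark the renal pelvis and ureter, summed over 8 to 104 CPM in C59S replicate 3, 51.6 CPM in C59A replicate 2 and 2.19 to 22.2 CPM in the other 7. C59A replicate 2 was poor in Adipoq, so this list did not follow the members. Skeletal muscle genes, which share Car3 and Plin4 with fat, summed to 2.04 to 6.27 CPM in all 9 libraries over 9 genes. The sum hides single genes. Acta1 had 0.422, 0.0566 and 2.09 CPM in C59A and 0.0373, 0.586 and 1.35 CPM in C59S. In WT it had at most 0.0502 CPM, and it was not called. Myh1 was called lower in C59A than in WT (adjusted p = 0.0279 by edgeR) and than in C59S (0.0154), where 5.7% and 5.91% of all genes were called. Smooth muscle genes summed to 726 CPM in C59S replicate 3, against 164 to 324 CPM elsewhere, and 40.6% of the counts of that library were mitochondrial, against 16.4% to 28.8% in the others. The part of these tissues, or of the mitochondrial share, in the levels of the members was not tested.

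**Figure D5:**
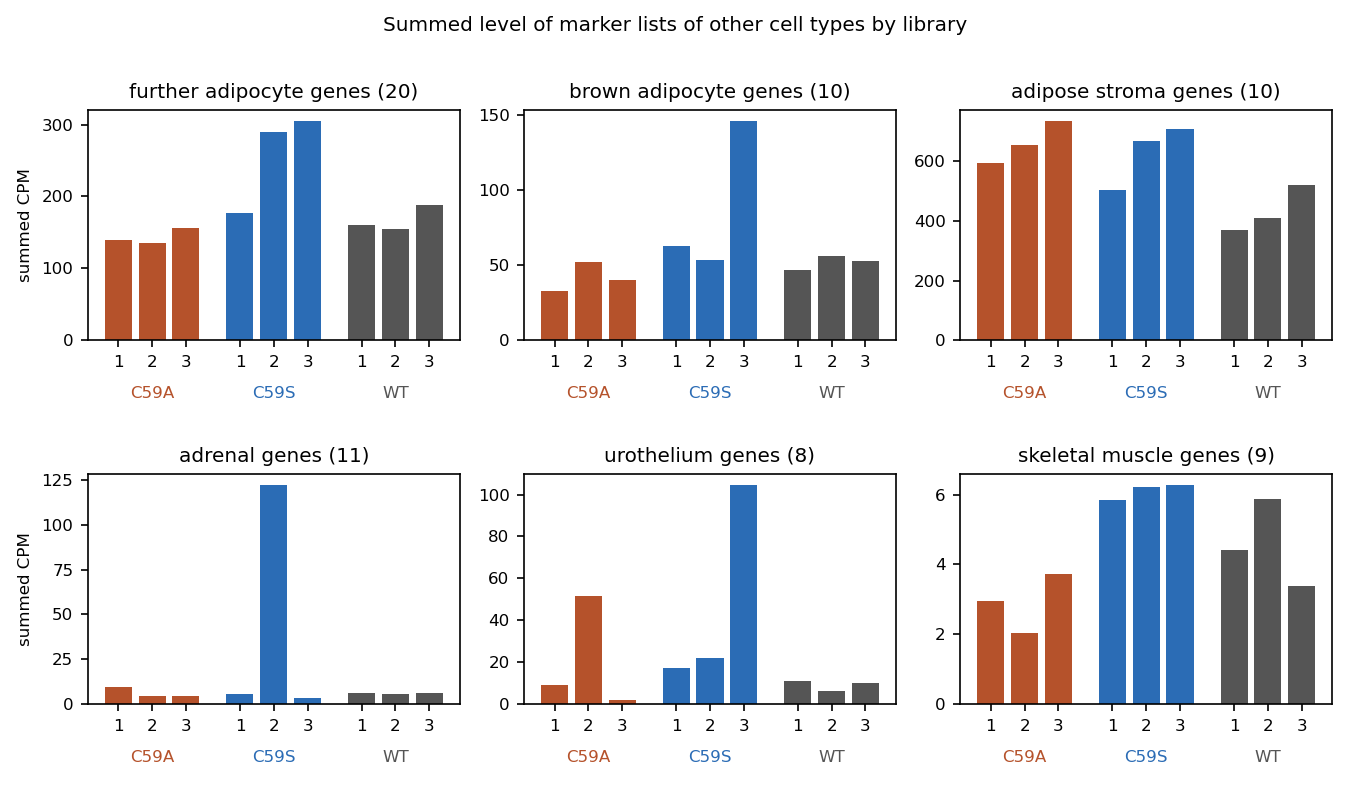
Summed CPM of 6 marker lists in each library, with C59A, C59S and WT replicates from left to right, each panel on its own axis from 0 and the number of genes in its title. Brown fat genes reach 146 CPM in C59S replicate 3, adrenal genes 122 CPM in C59S replicate 2 and urothelial genes 104 CPM in C59S replicate 3, while the 9 skeletal muscle genes stay at or under 6.27 CPM. Ly6a makes the larger part of every adipose stroma bar.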

How the data were processed

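Kidney RNA was extracted by TRIzol and prepared for sequencing with a NEBNext Ultra RNA kit, per the labels' protocols. GRCm38, featureCounts 1.5.0-p3, HISAT2 2.0.5, CASAVA 1.8, DESeq2 1.20.0 and fastp are named without roles or settings, per the submitters' processing notes. The strand setting and the annotation release are not given in the sources used here. The deposited counts per gene are raw whole numbers from the authors. The deposited FPKM equal the authors' counts per base of gene length, scaled once in each library (all 102640 values checked were within 1%, and the scale was 0.802 to 1.15 of the library total). No libraries of 1 genotype were duplicates (chi-square per degree of freedom 24.7 to 136).

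Libraries were grouped by the genotype in the labels. In R 4.3.3 with edgeR 4.0.16, genes were filtered with filterByExpr, scaled by TMM and fitted in 1 model of all 9 libraries (robust estimateDisp, glmQLFit and glmQLFTest). Genes with Benjamini-Hochberg adjusted p under 0.05 over all genes tested were called. An SE is the log2 fold change over the square root of F. The fit was tested on simulated counts that gave every gene the same spread. That setting does not hold for the members, so the simulation does not show how the fit behaves for them. The members and the 17 other lists (162 genes, of which 2 were found by identifier) were chosen with earlier results of these data known. Named are all members, up to 4 called genes per list by smallest p, the 10 genes nearest in pattern, and genes in counts of 5 or fewer or singled out as markers, which were chosen after their values were seen.

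Alternatives were other scalings and filters, DESeq2 1.42.0, limma 3.58.1 (voom, or log2 of FPKM plus 1 or 0.1, keeping genes that averaged 0.5 FPKM or all), only the 2 genotypes compared, a replicate block and leaving out each library. Leaving out C59S replicates 2 and 3 together, the 2-genotype fit with the block, and the ratios of reads without C59A replicate 3, were chosen after seeing the data. Replicate numbers come from the titles, the deposited column names carry other numbers, and no label states a pairing. The deviations of same-numbered libraries from their group means correlated at 0.318, 0.195 and 0.256 between C59S and WT, which counted as paired, at 0.0149, -0.0944 and 0.0491 between C59A and WT, and at -0.0853, -0.288 and 0.0499 between C59A and C59S, which did not. Differently numbered C59S and WT libraries correlated at 0.0085 at most, but C59A replicate 2 and C59S replicate 1 at 0.294. Such correlations do not establish a pairing. Members' coordinates were the same in GENCODE M21 and promoters came from RefSeq (GRCm38.p6).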

Additional observations from a re-analysis of the deposited data

How the results depend on the processing

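No member was called by edgeR under other scalings, no filter, a filter of at least 1 CPM in 3 libraries, the replicate block of all 9 libraries, or limma on FPKM. The members called numbered 4 in C59A against WT, 8 in C59S against WT and 1 in C59A against C59S by DESeq2, and 1, 0 and 1 by voom. For C59A against WT, 1 was called with only the 2 genotypes compared (6 members tested), 1 without C59S replicates 2 and 3 together, and 2 (Cfd and Cidec) with only the 2 genotypes and the replicate block. Leaving out 1 library gave 0 to 1 members in C59A against WT, 0 to 2 in C59S against WT and 0 to 2 in C59A against C59S.

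Of all genes, edgeR called 975 in C59A against WT. The count was 1622 by DESeq2, 475 with FPKM and no filter, 390 with the replicate block on the 2 genotypes and 502 (without C59A replicate 3) to 934 with 1 library left out. With library totals alone it was 1078, of which 20% were higher, against 56.8% with TMM. The median log2 fold change of all genes was then -0.26 in C59A against WT and -0.19 in C59S against WT, and no member changed sign. In C59S against WT, where edgeR called 0, the count was 20 with library totals, 308 with no filter, 670 by DESeq2, 2 with FPKM and no filter, 638 with the block on the 2 genotypes, 1 without C59S replicates 2 and 3 together and 0 to 737 with 1 library left out (737 without WT replicate 3). In C59A against C59S edgeR called 1012. The count was 670 with library totals, 1765 by DESeq2, 1768 by voom, 663 and 670 with FPKM plus 1 and plus 0.1, 311 with FPKM and no filter, 334 with the block on the 2 genotypes, 125 without C59S replicates 2 and 3 together and 318 (without C59S replicate 3) to 1307 with 1 library left out. The cause of these differences was not tested.

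Fitted signs turned as follows, on the log2 scale. Without C59S replicates 2 and 3 together, C59S against WT became -0.19 for Plin4 and -0.63 for Car3 (the fitted -1.85 for Lep rests on 0 reads against 1 and has no direction), and C59A against C59S became 4.88 for Adipoq, 2.30 for Retn, 3.83 for Cfd, 5.58 for Plin1 (2 reads in the C59S library kept), 1.71 for Plin4, 4.56 for Cidec and 3.07 for Car3. Lep in C59A against C59S became -0.56 by voom, -0.045 with the block on the 2 genotypes, and -3.80 to 2.05 with 1 library left out, the negative value being without C59A replicate 3, with 2 reads left in C59A. Apart from Cfd and Cidec, called in C59A against WT with the block on the 2 genotypes, the block changed no call of a member. The mean sum over the members was 101 in C59A and 16.4 in WT as deposited FPKM, another unit, and 204 to 310.2 CPM in C59A, 537 to 1251 CPM in C59S and 59 to 78.3 CPM in WT with 1 library left out. Members with 0 to 3 reads in a library are at the limit that this depth can show.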
